A study of Mus musculus with 5 samples.

Results

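The Hox genes encode homeodomain transcription factors. The 39 genes named Hoxa, Hoxb, Hoxc or Hoxd followed by a number were taken by symbol from the 21887 protein-coding genes of an NCBI RefSeq table of mouse assembly GRCm38. They formed 4 clusters: 11 Hoxa genes on chromosome 6, 10 Hoxb genes on chromosome 11, 9 Hoxc genes on chromosome 15 and 9 Hoxd genes on chromosome 2. The data were 1 list of 22948 peaks of H3K27ac, a histone acetylation found at active promoters and enhancers. The mark was measured by ChIPmentation, an immunoprecipitation of chromatin with adapters added to the bound DNA by the Tn5 transposase. The cells were mouse bone marrow cells carrying CD45.2, Kit and Sca1 and lacking lineage markers, with HSC/MPP (stem cell and multipotent progenitor) as their label.

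All libraries came from cells labelled as Mll3/4 deleted: 4 H3K27ac libraries and 1 input library. Mll3 and Mll4, with gene symbols Kmt2c and Kmt2d, are histone methyltransferases that act mainly at enhancers. The labels give neither the way the genes were deleted nor the strain or age, and they do not say whether the libraries came from separate animals. The list names the genotype and the mark but no library, and there is no other genotype beside it. Its deposited name calls it an overlap set, and how peaks of the 4 libraries were combined is not given in the sources used here. Every value below is therefore a description of 1 list, without replicate error or test, and total read depth is unknown. As a check of the cell label, 6 of 8 HSC/MPP marker genes had a peak within 1 kb of an end (Kit, Ptprc, Flt3, Cd48, Slamf1 and Meis1). The other two were Cd34 and Ly6a, which encodes the Sca1 by which the cells were isolated. Among all protein-coding genes the share with such a peak was 36.2%. Every B-cell marker reported here also had one, 3 of 3. Their signal values (the authors' values, read as a ratio over background) were 4.40 at Cd79a, 8.45 at Pax5 and 12.4 at Ebf1. The median over the 6 HSC/MPP genes was 6.12. At a −log10 q of at least 5, where q is the authors' p-value corrected for the number of tests, 4 of the 8 HSC/MPP genes were left, without Cd48 (0.80) and Slamf1 (2.68), and the 3 B-cell genes all stayed, against 24.0% of all protein-coding genes. A peak of any strength was found for 1 of 4 erythroid markers (Hbb-bt), and for 0 of 4 each of the markers of mature myeloid cells, T cells, and stroma with endothelium. Since HSC/MPP and B-cell markers both had peaks, this check does not separate the HSC/MPP label from cells of the B lineage.

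Hox genes lie in each cluster in the order in which they are used along the body axis of the embryo, with low numbers (paralog groups) anterior and high numbers posterior. In blood, genes of the central and posterior Hoxa cluster are known to be active in stem and early progenitor cells and to fall silent as cells mature. Hoxa9, with its partner Meis1, is a driver of acute myeloid leukaemias that carry fusions of MLL1, a relative of Mll3 and Mll4. Polycomb complexes keep Hox genes silent elsewhere.

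H3K27ac peaks were found in 1 of the 4 clusters. The Hoxa cluster held 5 peaks, all between Hoxa6 and the middle of Hoxa10. The Hoxb, Hoxc and Hoxd clusters held 0 peaks between their first and last Hox gene and 0 peaks in the 50 kb on either side. Of the 39 genes, 5 (12.8%) had a peak within 1 kb of either end: Hoxa3, Hoxa6, Hoxa7, Hoxa9 and Hoxa10. Among all protein-coding genes the share was 36.2%. Counted by summits within 1 kb of an end instead, 2 of the 39 genes were left, Hoxa6 and Hoxa7, against 33.3% of all protein-coding genes. With only peaks of −log10 q of at least 5, the same 5 genes remained, against 24.0% of all genes. Of the 39 genes, 4 (10.3%) were overlapped by a peak, against 41.3% of all protein-coding genes.

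**Figure D1:**
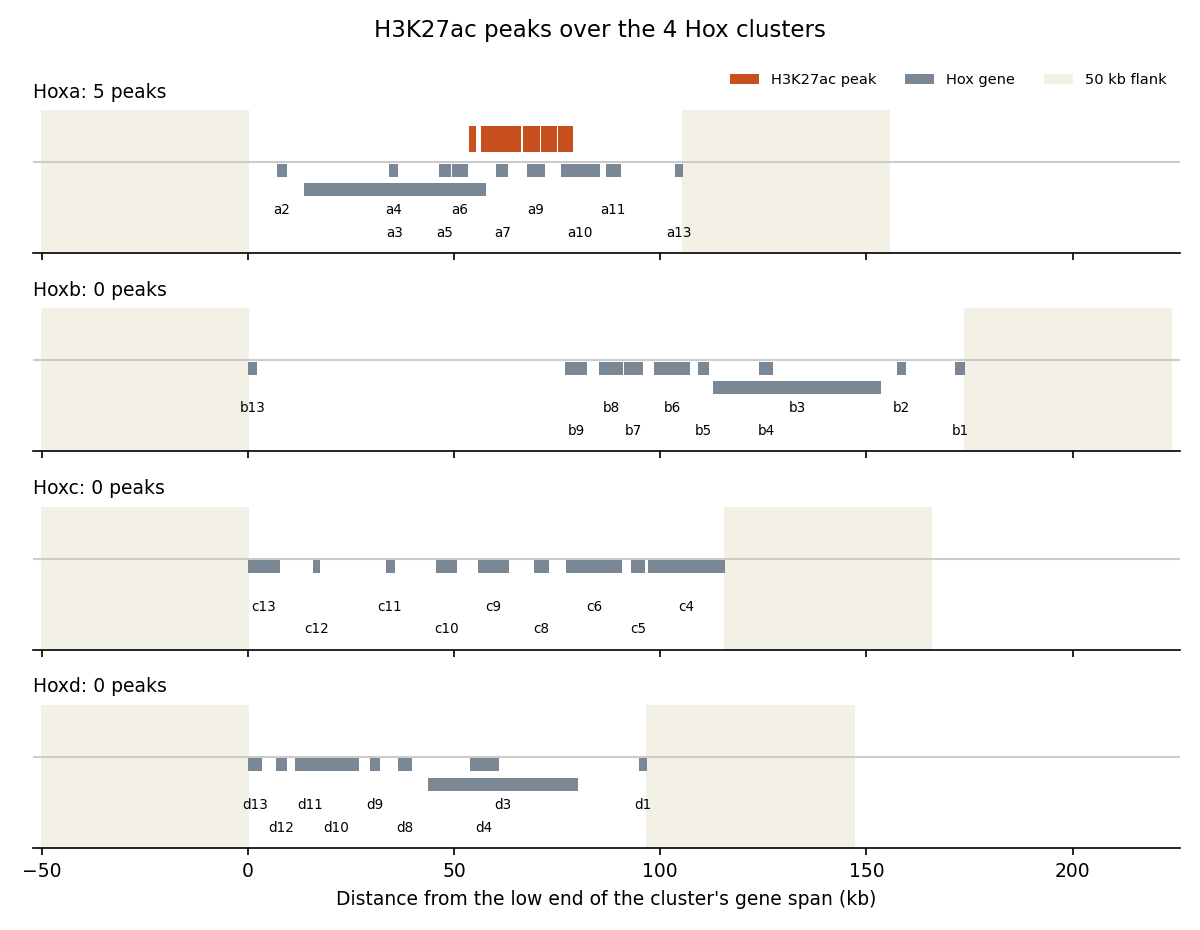
Map of the 4 Hox clusters to scale, with distance in kb from the low end of each gene span on the x axis, Hox genes in grey and H3K27ac peaks in orange. The 5 peaks stand side by side in the Hoxa cluster, from beside Hoxa6 into Hoxa10, and the other clusters and all 50 kb flanks hold 0.

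The sequences before 3 starts are shown, 2 from under the acetylated block and 1 from beyond its upper edge. The starts of Hoxa7 and Hoxa9 lay under peaks, whereas the inner of 2 annotated starts of Hoxa10 lay 669 bp past the last peak. Each sequence is the 250 bases before the start from the RefSeq promoter table (GRCm38.p6), read 5′ to 3′ on the minus strand, with CG pairs in capitals. CG pairs are the sites of DNA methylation and are dense in many promoters.
Hoxa7 (chr6:52218574-52218823): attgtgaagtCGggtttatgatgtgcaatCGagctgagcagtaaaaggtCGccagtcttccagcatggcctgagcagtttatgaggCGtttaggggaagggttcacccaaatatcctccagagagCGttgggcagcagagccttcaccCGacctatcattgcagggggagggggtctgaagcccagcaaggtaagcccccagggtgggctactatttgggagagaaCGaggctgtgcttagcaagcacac
Hoxa9 (chr6:52227371-52227620): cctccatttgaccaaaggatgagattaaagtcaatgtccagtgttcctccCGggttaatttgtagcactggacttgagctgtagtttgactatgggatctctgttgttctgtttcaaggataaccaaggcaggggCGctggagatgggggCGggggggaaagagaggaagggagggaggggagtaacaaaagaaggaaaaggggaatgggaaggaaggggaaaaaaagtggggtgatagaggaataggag
Hoxa10, inner start (chr6:52234940-52235189): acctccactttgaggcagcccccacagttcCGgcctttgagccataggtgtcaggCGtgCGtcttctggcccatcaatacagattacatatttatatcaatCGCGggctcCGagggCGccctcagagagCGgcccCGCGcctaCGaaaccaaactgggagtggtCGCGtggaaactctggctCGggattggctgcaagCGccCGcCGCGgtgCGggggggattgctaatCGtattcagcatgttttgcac
These stretches hold 7 CG pairs for Hoxa7, 3 for Hoxa9 and 20 for Hoxa10. The third start under a peak, that of Hoxa3, has 18 in its 250 bases, so a low number of CG pairs was not shared by all starts under a peak.

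The 5 peaks ran from 52208993 to 52234270 on chromosome 6, a block of 25.3 kb. Peaks covered 92.0% of the block, and the gaps between neighbouring peaks were 1130, 431, 262 and 192 bp from the low to the high side. They covered 23.3 kb, or 22.0% of the 105.5 kb gene span of the cluster. All peaks of the list covered 1.00% of the chromosomes up to the last gene or peak. Peaks closer than 1 kb were then joined. The upper 4 peaks became 1 region of 22.3 kb, and 7 of all 17810 joined regions, this one included, were at least as long. The median joined region was 1204.5 bp.

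Peak strength was read from the authors' signal value, taken to be the enrichment ratio that such a column usually holds. The order along the chromosome was low, high, intermediate, high, low. Peak 1, on the low side (52208993 to 52210798), had a signal value of 3.95, a −log10 q of 5.62 and a width of 1806 bp. Peak 2 (52211929 to 52221729) had the highest signal value of the cluster, 7.65, with a −log10 q of 21.6. It was 9801 bp wide, rank 29 by width in the whole list. Peak 3 (52222161 to 52226154) had a signal value of 5.81, a −log10 q of 12.9 and a width of 3994 bp. Peak 4 (52226417 to 52230359) had a signal value of 7.44, a −log10 q of 20.7 and a width of 3943 bp. Peak 5 (52230552 to 52234270) had the lowest signal value, 3.52, with a −log10 q of 4.94 and a width of 3719 bp.

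**Figure D2:**
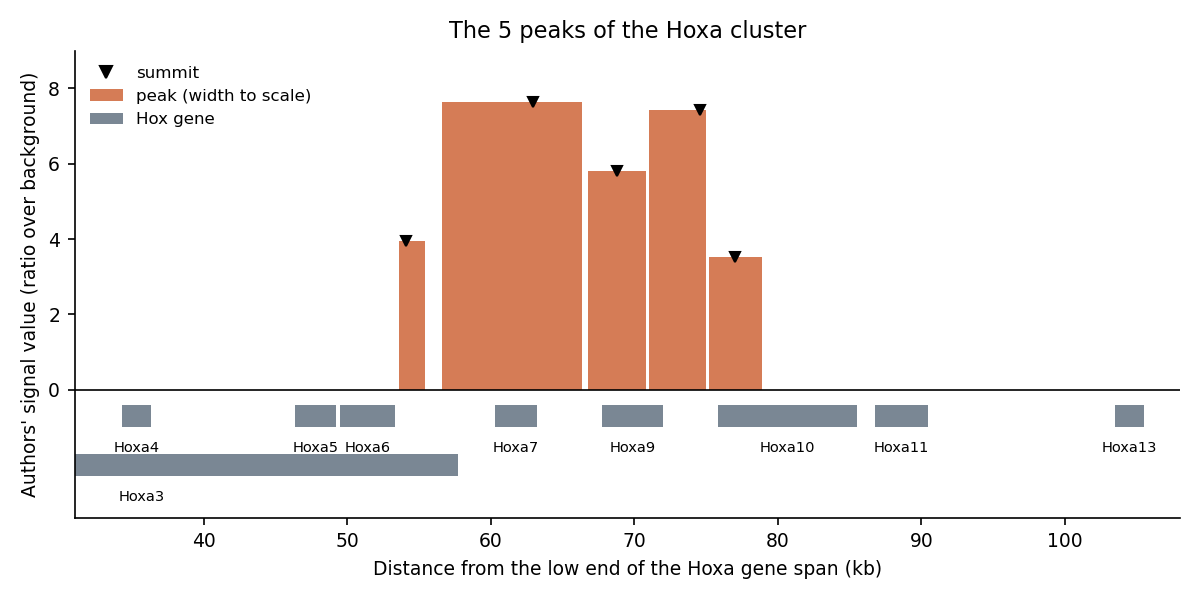
The central and posterior Hoxa cluster, with distance in kb from the low end of the cluster's gene span on the x axis and the authors' signal value of each peak as bar height (1 value a peak, not a coverage profile). Triangles mark summits and grey bars Hox genes: the peaks over Hoxa7 and between Hoxa9 and Hoxa10 reach 7.65 and 7.44, and the outer ones 3.95 and 3.52.

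All 5 peaks were wider than most of the list, and not all were strong. The share of peaks that were narrower was 82.1% for peak 1, 99.9% for peak 2, 97.5% for peak 3, 97.4% for peak 4 and 96.9% for peak 5. The median width of the list was 854 bp. By signal value, 65.0% of the list lay below peak 1, 93.2% below peak 2, 85.3% below peak 3, 92.7% below peak 4 and 56.8% below peak 5. The outer peaks thus stood near the middle of the list by strength, whose median signal value was 3.27, while their widths did not.

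**Figure D3:**
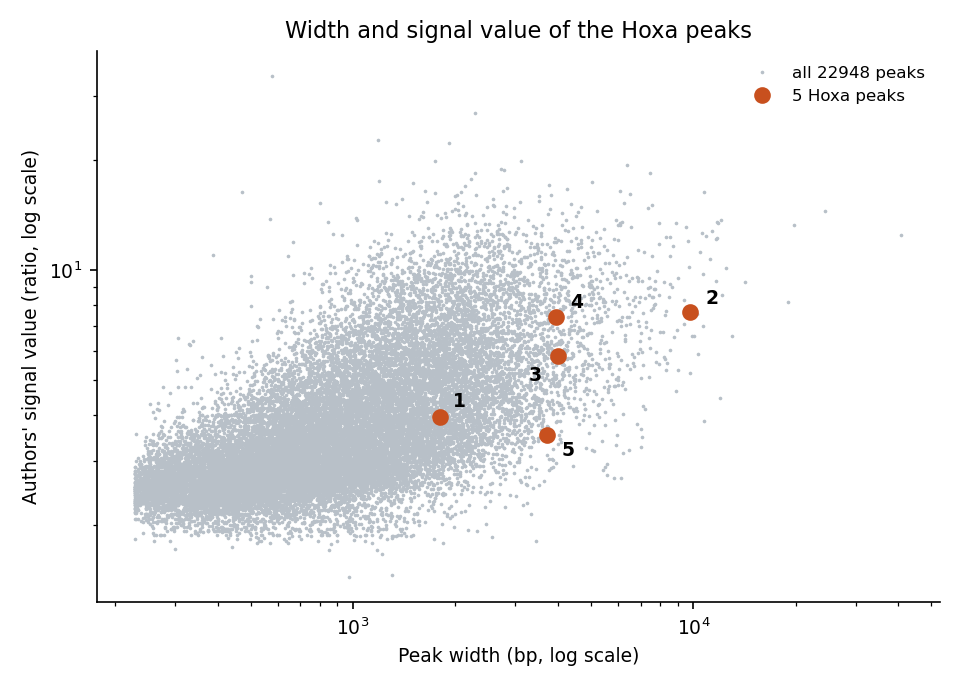
Width (bp, log scale) against the authors' signal value (log scale) for all 22948 peaks in grey and the 5 Hoxa peaks in orange, numbered from the low side. Peak 2 lies at the wide edge of the list with 9801 bp, and peaks 1 and 5 have signal values of 3.95 and 3.52.

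Among the posterior Hoxa genes, Hoxa9 was covered by peaks over 93.9% of its length. Hoxa9 encodes a factor that sustains stem cells and, when kept on, blocks myeloid maturation. Peak 3 lay over the gene body, with its summit 3192 bp downstream of the start, and peak 4 covered the start. The summit of peak 4 stood 2575 bp upstream of the Hoxa9 start, between Hoxa9 and Hoxa10. The strongest signal value at an end of Hoxa9 exceeded that of 82.0% of the 7929 protein-coding genes with a peak at an end, whose median was 4.71 (interquartile range 3.52 to 6.55).

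Hoxa10, a posterior gene that acts in early blood progenitors and in the reproductive tract, was covered over 31.8% of its 9658 bp, at its low end, which is the 3′ end. It shared peak 4 with Hoxa9, since that peak reached into the 1 kb window at the low end of Hoxa10, and peak 5 lay across that end. The RefSeq table gives 2 starts for Hoxa10. The inner start lay 669 bp past the edge of peak 5 and the outer start 6584 bp past it, so neither was under a peak. Hoxa11 and Hoxa13, known for their roles in limb and urogenital development, had no peak at an end. The nearest peak lay 7.84 kb from Hoxa11 and 24.6 kb from Hoxa13.

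Among the central Hoxa genes, Hoxa7 lay wholly inside peak 2. Hoxa7 is often active together with Hoxa9 in MLL1-driven leukaemia. The summit stood 260 bp downstream of the Hoxa7 start, the closest of the 5 summits to an annotated Hox start. Of all 21887 protein-coding genes, 60 (0.274%) lay wholly inside 1 peak, and 7 of the 18532 genes of at least the length of Hoxa7 did so, Hoxa7 included. Hoxa6 itself was not overlapped by a peak: peak 1 began 321 bp before its start, and the summit lay 812 bp upstream of it. The strongest signal value at an end of Hoxa6 exceeded that of 34.7% of genes with such a peak. Hoxa5, next to Hoxa6, had its start 4406 bp from peak 1 and no peak at an end.

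Among the anterior Hoxa genes, Hoxa3 was the only member counted, through the far end of a long gene model. Hoxa3 is best known for its role in thymus and parathyroid formation. Its RefSeq model is 44.0 kb long and encloses Hoxa4, Hoxa5 and Hoxa6. Its annotated start, at 52213067, lay under peak 2 between Hoxa6 and Hoxa7. Peaks covered 6.69% of the model, all at that end. Hoxa2 and Hoxa4 had no peak at an end, with the nearest peak at 44.2 and 17.3 kb.

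Counted over all clusters, peaks at an end were found for 1 of 12 anterior genes (groups 1 to 4), 2 of 11 central genes (groups 5 to 8) and 2 of 16 posterior genes (groups 9 to 13). These shares are 8.33%, 18.2% and 12.5%, and each lies below the 36.2% of all protein-coding genes. Within Hoxa the counts were 1 of 4 anterior (25%), 2 of 3 central (66.7%) and 2 of 4 posterior genes (50%), so the central and posterior Hoxa shares lay above 36.2%, over very few genes. Counted by summits, these became 0 anterior, 2 central and 0 posterior genes, so the posterior share was above that of all genes by overlap only. With signal values from 4 upwards, 1 of the 3 central Hoxa genes was left, Hoxa7. The genes share peaks, since peak 2 serves Hoxa3 and Hoxa7, peak 4 serves Hoxa9 and Hoxa10, and the counts are not independent. The stretch without peaks lay on both sides: from the anterior end of the cluster to the start of Hoxa6 on the anterior side and from the inner Hoxa10 start to Hoxa13 on the posterior side.

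The acetylated Hoxa genes had relatives of the same paralog group in the other clusters, and none of these had a peak. In group 9, the nearest peak lay 195.8 kb from Hoxb9, 252.9 kb from Hoxc9 and 785.3 kb from Hoxd9. In group 10 it lay 244.8 kb from Hoxc10 and 771.8 kb from Hoxd10. In group 7 it lay 210.1 kb from Hoxb7. In group 6 it lay 217.3 kb from Hoxb6 and 225.4 kb from Hoxc6, and in group 3 it lay 231.6 kb from Hoxb3 and 799.6 kb from Hoxd3. In each of these 5 groups, the member with a peak was the Hoxa gene alone.

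The Hoxb cluster held no peak across its 173.9 kb. It includes Hoxb4, which expands stem cells when expressed in excess, and Hoxb5, a marker of long-term stem cells. The nearest peak lay 242.7 kb from Hoxb4 and 228.0 kb from Hoxb5. Hoxb13, a posterior gene known from prostate, lay apart from the rest and had the smallest distance of the cluster, 118.8 kb. The remaining members Hoxb1, Hoxb2 and Hoxb8 also had no peak, at 272.9, 276.1 and 203.9 kb.

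The Hoxc cluster held no peak across its 115.7 kb. Its members outside the groups above were Hoxc4, Hoxc5, Hoxc8, Hoxc11, Hoxc12 and Hoxc13, the last known from hair and nail. Their distances to the nearest peak ran from 199.1 kb for Hoxc13 to 243.0 kb for Hoxc8. The Hoxd cluster, whose posterior genes pattern limbs and digits, held no peak across its 96.9 kb and lay farthest from any. Its other members were Hoxd1, Hoxd4, Hoxd8, Hoxd11, Hoxd12 and Hoxd13, and the distance rose from 755.8 kb for Hoxd13 to 850.5 kb for Hoxd1. Over the 28 genes of these 3 clusters, the median distance was 242.9 kb. Acetylation too weak to be called, or dropped when the libraries were combined, is not in the list, so absence of a peak is not absence of the mark.

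**Figure D4:**
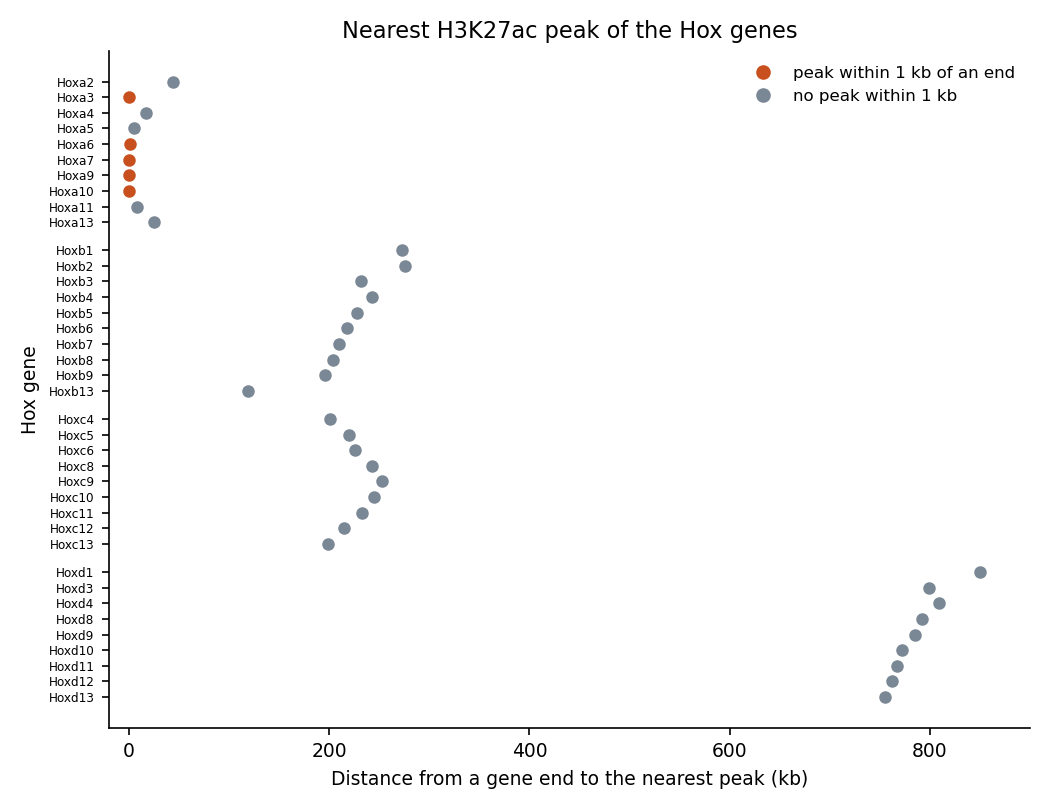
Distance in kb from an end of each Hox gene shown to the nearest H3K27ac peak, by cluster and paralog group, with genes with a peak within 1 kb in orange. The Hoxa genes shown lie within 44.2 kb of a peak, the Hoxb and Hoxc genes between 118.8 and 276.1 kb, and the Hoxd genes at 755.8 kb or more.

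The 3 clusters without a peak each lay in 1 long stretch that held none. The stretch around Hoxb measured 565.6 kb and held 12 protein-coding genes, and that around Hoxc measured 515.3 kb and held 10. The stretch around Hoxd measured 1726 kb and held 13. The median gap between neighbouring peaks was 20.6 kb over 22927 gaps. Of these gaps, 839 were at least as long as that of Hoxb, 927 as that of Hoxc and 229 as that of Hoxd. Gaps that were both as long and held as many protein-coding genes, themselves included, numbered 97, 124 and 36. The Hoxa block also stood alone. The next peak was 143.7 kb away on the low side, with a signal value of 4.16, and 315.7 kb away on the high side, with a signal value of 3.22. The windows of the 4 clusters with their flanks had 5.60 peaks per Mb, against 8.43 per Mb over the genome. By covered bases their share was the larger one, with 23.3 kb of 892.1 kb under peaks, against 27.2 Mb of 2721 Mb over the genome.

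The clusters also hold microRNA genes, whose products repress messenger RNAs, Hox transcripts among them, through pairing of the seed, bases 2 to 8. Of 6 such genes, 1 was overlapped by a peak, Mir196b between Hoxa9 and Hoxa10, against 5.70% of all 1228 microRNA genes. Its hairpin (52230081 to 52230165) was inside peak 4, and the summit stood 136 bp from it. The 5′ products that RefSeq gives for the miR-196 and miR-10 genes are shown because they are near copies made in different clusters, with the seed in capitals.
mmu-miR-196b-5p (Hoxa cluster, under a peak): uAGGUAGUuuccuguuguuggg
mmu-miR-196a-5p (Hoxb and Hoxc clusters, no peak): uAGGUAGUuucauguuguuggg
mmu-miR-10a-5p (Hoxb cluster, no peak): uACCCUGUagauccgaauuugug
mmu-miR-10b-5p (Hoxd cluster, no peak): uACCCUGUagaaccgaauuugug
Counted from the 5′ end, miR-196a and miR-196b differ by A12C and share their seed, and miR-10a and miR-10b differ by U12A and share theirs. The nearest peak lay 189.6 kb from Mir196a-1, 251.3 kb from Mir196a-2, 241.6 kb from Mir10a and 813.6 kb from Mir10b. The miR-196 seed was thus encoded at 3 places, 1 of them under a peak. Mir615, in the Hoxc cluster, had no peak either.

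Of 29 long non-coding RNA genes in the 4 windows, 3 were overlapped by a peak, against 15.4% of all 12727 such genes. The 3 could lie only in Hoxa, since no other window held a peak. Hoxaas3, which overlaps Hoxa5 and Hoxa6, was touched by peaks 1 and 2, Mira lay wholly inside peak 2, and Gm52902, which starts between Hoxa9 and Hoxa10 in coordinate order and runs into Hoxa10, was touched by peaks 4 and 5. Hotairm1 and Hotairm2 at the anterior end of Hoxa, Hottip beyond Hoxa13, Hotair in Hoxc and Haglr in Hoxd were not overlapped. Of the protein-coding neighbours in the flanks, Ttll6 and Evx2, neither was overlapped.

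The promoter table held 24 promoters of 22 of the 39 Hox genes, each 250 bases before to 50 after a start. The 9 Hoxa genes in it are on the minus strand and the 13 other genes on the plus strand. Of the 24 promoters, 3 (12.5%) were overlapped by a peak, those of Hoxa3, Hoxa7 and Hoxa9, against 25.7% of 21263 protein-coding promoters. The 3 held 20, 9 and 4 CG pairs in 300 bases. Protein-coding promoters under a peak had a median of 22 CG pairs (interquartile range 14 to 30), and those not under a peak 8 (3 to 21).

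Of the 24 Hox promoters, 12 held at least 15 CG pairs, a limit chosen after values were seen. The share over all protein-coding promoters was 46.8%, so the Hox set as a whole was close to it. Among promoters not under a peak, the shares were 52.4% of 21 Hox promoters and 37.2% of 15805 protein-coding promoters. Of the 24 Hox promoters, 10 were from Hoxa and 14 from the other clusters. Of the 12 Hox promoters with at least 15 CG pairs, 1 (8.33%) was under a peak, that of Hoxa3, against 40.9% of 9957 protein-coding promoters with as many. The highest counts were 45 for Hoxa13, 37 for Hoxd13, and 29 each for Hoxa5 and Hoxd1, all without a peak. The 21 Hox promoters not under a peak had a median of 15 CG pairs.

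**Figure D5:**
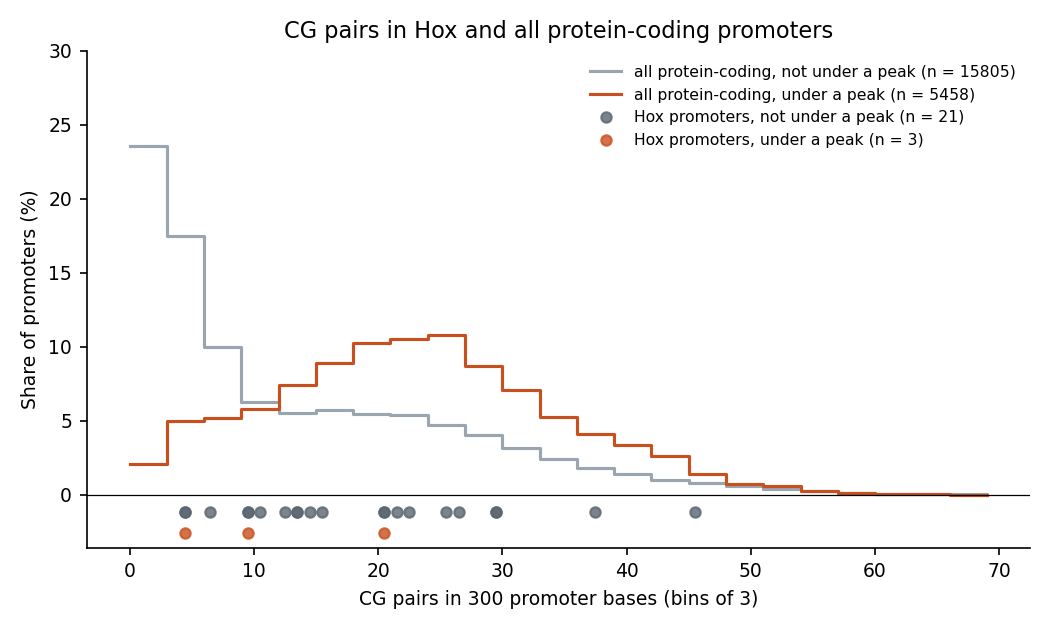
Share of protein-coding promoters (%) by their number of CG pairs in 300 bases, in bins of 3, for promoters under a peak (orange line) and not under one (grey line), with the 24 Hox promoters as points beneath the axis. The 3 Hox promoters under a peak have 4, 9 and 20 CG pairs, and those without a peak reach 45.

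Partners and regulators of Hox proteins were counted in the same way. Of the 34 listed genes, 20 had a peak at an end, read against 36.2% of all protein-coding genes, and 13 had one of −log10 q of at least 5, read against 24.0%. Among 9 partners with a TALE homeodomain, which bind DNA together with Hox proteins, 5 had a peak of any strength at an end and 4 had one at that limit. Meis1 had the strongest peak of these 34 genes, with a signal value of 12.2 over 11746 bp, and Meis2, Meis3, Pbx3 and Pknox2 had none. Of the 5 caudal and even-skipped homeobox genes, Cdx1, Cdx2, Cdx4, Evx1 and Evx2, 0 had a peak. Caudal proteins activate Hox genes in the embryo, and Evx1 and Evx2 lie next to the posterior ends of the Hoxa and Hoxd clusters.

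Genes on the side of MLL1, which keeps Hox genes active, had a peak in 7 of 8 cases, Dot1l being the exception. The share over all protein-coding genes was 36.2%. Kat7, a histone acetyltransferase, had the strongest peak of the 7, with a signal value of 7.87. The median of the 7 was 3.24, below the 4.71 of all genes with a peak at an end. A peak of −log10 q of at least 5 was at 3 of the 8 genes, Kmt2a, Mllt3 and Kat7, against 24.0% of all protein-coding genes. Of 12 Polycomb and insulator genes, 8 had a peak and 6 had one at that limit, read against the same 36.2% and 24.0%. The strongest was at Ctcf with a signal value of 9.73, and Cbx2, Cbx7, Cbx8 and Rad21 had none. The highest signal value at the Hoxa block, 7.65, lay below those at Meis1, Ctcf and Kat7. It lay above those of all other partner and regulator genes with a peak.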

How the data were processed

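The 4 H3K27ac libraries and the input were represented by 1 deposited peak list. The submitters' processing notes name BWA, MACS2 and mm10 (GRCm38), without versions or roles; filters are not given in the sources used here. The deposited list gives, per peak, a score, the authors' signal value (read as a ratio over background), the authors' −log10 p-value and −log10 q-value, and a summit. The score was not used further.

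Members and lists were chosen with earlier results of these data known. Gene positions came from RefSeq GRCm38.p6, promoter and microRNA sequences from RefSeq tables of the same build. Coordinates are 1-based. Peaks were assigned to a gene end when they overlapped, by at least 1 bp, the window from 1 kb before to 1 kb after it. Overlap code was checked on simulated peaks and run with Python 3.11.15 and pandas 2.3.3. Hox genes were named, with every peak of the clusters, except that 1 member, and 1 marker gene, are not reported here; the member is kept in the counts. Other genes were named when touched by a peak, and list members when without a peak or among the 3 strongest. The non-coding genes named without a peak, and the limit of 15 CG pairs, were chosen after values were seen. No test was made, because the list has no values of single libraries. The alternatives were stricter peak thresholds, other windows and flanks, joined peaks, summits, annotated starts and another anterior limit.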

Additional observations from a re-analysis of the deposited data

How the results depend on the processing

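Of 42 recomputed values, 32 kept their size within the factor or limit set for them and 10 moved. These limits differed between results. A fall from 5 to 4 Hox genes with a peak at an end counted as kept. The fall of the covered share of the Hoxa span from 22.0% to 18.5% counted as moved. A further 12 are not counted, since stricter thresholds only remove peaks and could not change them: the 0 of Hoxb, Hoxc and Hoxd and the highest signal value. Some of the 32 kept values were fixed as well. The other anterior limit left the posterior groups as they were, and flanks of 20 kb could not change the count because those of 50 kb held 0 peaks. All alternatives were planned. Counting a gene only when a summit lay within 1 kb of an end left 2 Hox genes, Hoxa6 and Hoxa7, with 0 anterior and 0 posterior genes, since the summits near Hoxa9 and Hoxa10 stand over 1 kb from their ends. Keeping signal values from 4 upwards removed peaks 1 and 5: 3 peaks were left in the gene spans and 3 with flanks, 1 central gene (Hoxa7), and 16.8% of the Hoxa span was covered. Peaks with a −log10 q from 5 upwards covered 18.5% of it. Joining peaks within 1 kb left 2 regions in the gene spans and 2 with flanks. With flanks of 100 kb, 6 peaks were counted, the added one beside Hoxa.

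No paired analysis was possible because the deposited list has no values of single libraries, and single libraries were not left out for the same reason. Depth is unknown, and weaker acetylation of the other clusters was not measured.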

Other observations

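Letters of 3 short motifs were counted on both strands of the 24 Hox promoters, each motif by itself. TGACAG, the type bound by Meis proteins, was in 2 of them (Hoxa2 and Hoxa3), or 8.33%, against 18.7% of protein-coding promoters. TGATTNA, of the type bound by Hox and Pbx proteins together, was in 4 (Hoxa2, Hoxb1, Hoxd8 and 1 of the 2 promoters of Hoxd11), or 16.7%, against 9.17%. TATAAA was in 4 (Hoxb8, Hoxd4, Hoxd13 and the inner promoter of Hoxa10), or 16.7%, against 12.6%. Of the 3 promoters under a peak, that of Hoxa3 held TGACAG and the others held none of these letters. A match is not a site of binding.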
